A study of Mus musculus with 4 samples.

Results

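The genes described here are Adm, which encodes the peptide hormone adrenomedullin, and the 4 genes for its receptor parts, Calcrl, Ramp1, Ramp2 and Ramp3. They were chosen by name, not by their values, and are 5 of the 24421 rows of the count table. Each of the 5 names had 1 row. RNA had been sequenced from the endothelial lining cells of lymphatic vessels, taken from mouse lungs on postnatal day 0. Jun-cKO cells came from Prox1-CreER;Junf/f;Rosa26-mTmG mice, in which both Jun alleles are floxed, and Jun-Ctrl cells came from Prox1-CreER;Junf/+;Rosa26-mTmG mice, which have 1 floxed allele. Both groups therefore carry a Prox1-driven CreER, a Cre recombinase that tamoxifen switches on, at least 1 floxed Jun allele, and a reporter that makes membrane GFP after Cre has acted. The labels used here give no tamoxifen dose or day. The sorted cells lacked the leukocyte protein CD45 and carried the endothelial protein CD31 and GFP. Each group had 2 libraries (n = 2 in every mean below). Cells of 3 to 5 mice were pooled for a group, and by the design text cells of 3 replicates were mixed ahead of RNA amplification. Replicate 2 is the library whose title carries the word replicate. No label states that libraries of 1 group are separate sorts, so a p-value here measures the spread among these libraries alone, which may be technical.

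Adrenomedullin is a small peptide that relaxes blood vessels and acts as a growth and barrier signal on endothelium. Calcrl is a receptor coupled to the stimulatory G protein, and it reaches the cell surface and gains its ligand preference only in a complex with a Ramp, a single-pass membrane protein. With Ramp2 or Ramp3 it forms an adrenomedullin receptor, and with Ramp1 it forms the receptor for calcitonin gene-related peptide. The occupied receptor raises cyclic AMP, which acts through protein kinase A and Epac. Mouse embryos without Adm, Calcrl or Ramp2 are known to become oedematous with poorly grown lymphatic vessels. Adm is also a textbook target of hypoxia-inducible factors.

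The promoter sequences are shown because the compared groups differ at Jun, which encodes part of the AP-1 transcription factor, and because Adm is a hypoxia target. They are from RefSeq on GRCm38.p6, the assembly that mm10 names, are written on the gene's strand from 5′ to 3′, and stop before the outermost annotated transcript start. Of the 5 genes, 4 had an entry in the promoter table, and Ramp2 had none. Capitals mark the hypoxia response core GCGTG on either strand, so that CACGC is the same core on the opposite strand. The Adm sequence is chr7:110627407-110627656 on the plus strand, and the Calcrl sequence is chr2:84425412-84425516 on the minus strand. The Ramp1 sequence is chr1:91179572-91179821 and the Ramp3 sequence chr11:6658283-6658505, both on the plus strand.
Adm: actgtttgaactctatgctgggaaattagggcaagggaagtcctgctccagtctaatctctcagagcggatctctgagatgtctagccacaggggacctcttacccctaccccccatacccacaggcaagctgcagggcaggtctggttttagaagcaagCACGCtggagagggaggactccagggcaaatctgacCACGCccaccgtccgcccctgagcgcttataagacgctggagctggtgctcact
Calcrl: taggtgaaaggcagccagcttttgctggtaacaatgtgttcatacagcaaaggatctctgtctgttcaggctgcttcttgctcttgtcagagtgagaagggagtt
Ramp1: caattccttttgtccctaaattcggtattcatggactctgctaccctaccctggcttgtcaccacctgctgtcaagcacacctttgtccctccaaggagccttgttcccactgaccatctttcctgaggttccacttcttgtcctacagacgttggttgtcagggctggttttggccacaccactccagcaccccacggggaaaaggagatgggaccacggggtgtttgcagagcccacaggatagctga
Ramp3: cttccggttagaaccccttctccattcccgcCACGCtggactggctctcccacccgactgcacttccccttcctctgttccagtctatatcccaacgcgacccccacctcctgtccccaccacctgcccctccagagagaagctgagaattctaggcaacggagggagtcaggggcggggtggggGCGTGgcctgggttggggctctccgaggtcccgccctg

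Motifs were searched in the 250 bases before the start that the RefSeq promoter table uses, which for Calcrl and Ramp3 lies inside the gene, downstream of the outermost annotated start where the printed sequences end. In these windows 0 of the 4 promoters held the AP-1 letters TGANTCA, which 6.75% of 32851 mouse promoters held in the same window. None of the 4 held the cyclic AMP response element TGACGTCA, its core TGACG, which is contained in the full element, or the hypoxia core ACGTG. Those letters were in 1.55%, 17.8% and 16.6% of all promoters. The other hypoxia core, GCGTG, occurred at 2 places in Adm, starting 90 and 54 bases before the start in that table, and at 2 places in Ramp3, 219 and 65 bases before the start in that table. It was in 28.2% of all promoters. All motifs were searched on both strands, and a match or its absence says only which letters the window holds.

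The libraries labelled Jun-cKO held 15558476 and 6911821 counts and those labelled Jun-Ctrl held 16037416 and 6483514 counts. Levels are given as CPM, counts scaled to library size by the TMM method. Jun itself was at 523.8 and 474.5 CPM in the libraries labelled Jun-cKO, against 472.0 and 432.8 CPM in Jun-Ctrl, a log2 difference of 0.14 with an SE of 0.12 (adjusted p = 0.354, edgeR quasi-likelihood test, Benjamini-Hochberg adjustment). It was 0.41 after the GC correction described below (adjusted p = 0.00388). Jun was not lower in the libraries labelled Jun-cKO, so they are called Jun-cKO-labelled, and each direction given here holds only as far as that label does. Which part of Jun is floxed is not given in the sources used here, so counts over the whole gene need not show the deletion. The lymphatic markers Lyve1 (9450 ± 1145 CPM in Jun-cKO-labelled, 6187 ± 304.2 CPM in Jun-Ctrl, mean ± SD) and Reln (2787 ± 423.4 CPM in Jun-cKO-labelled, 1618 ± 79.6 CPM in Jun-Ctrl) were abundant in both groups. Not all moved one way, since Flt4, the receptor for lymphatic growth factors, was at 1049 ± 215.3 CPM in Jun-cKO-labelled libraries and 1588 ± 125.6 CPM in Jun-Ctrl, 1.51-fold lower (edgeR adjusted p = 0.000356), and Prox1 had no call at 33.1 ± 1.64 CPM in Jun-cKO-labelled libraries and 41.5 ± 3.05 CPM in Jun-Ctrl. Ccl21a, a chemokine gene on the same marker list, had 0 counts in all 4 libraries.

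All 5 genes had enough counts to be tested, among 12656 tested genes. Calcrl and Ramp3 were higher and Ramp1 was lower in Jun-cKO-labelled libraries, and Adm and Ramp2 had no call at an adjusted p of 0.05. That is 3 of 5 called, beside 41.5% of all tested genes (5251 of 12656). For the 2 that were higher the background was 19.0%, and for the 1 that was lower it was 22.5%. The 2 groups did not overlap for 3 of the 5 genes, beside 71.3% of all tested genes, and with so few genes nothing particular to them is read from these counts. In bulk RNA, fewer cells that express a gene and less of its RNA per cell cannot be told apart.

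**Figure D1:**
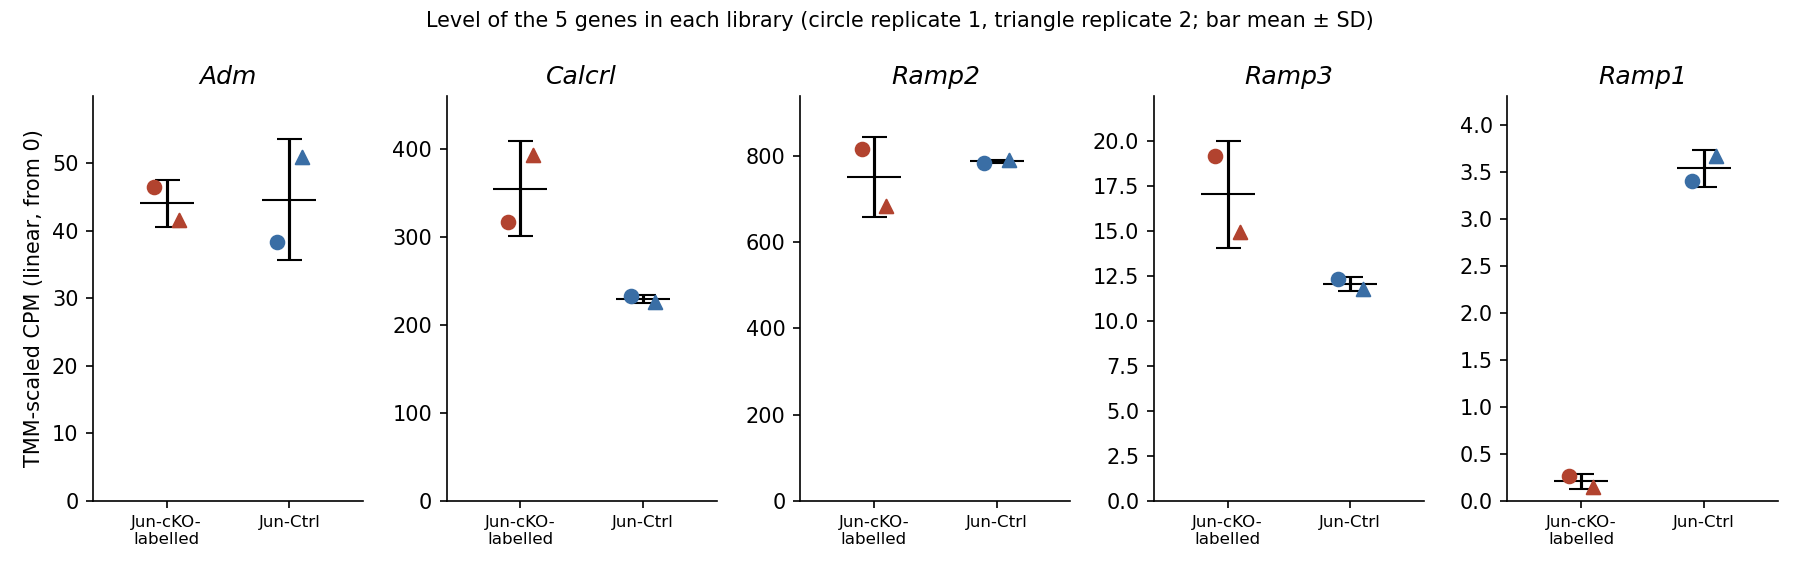
Level of each gene in each library, as TMM-scaled CPM on a linear axis from 0, with the mean and SD of the 2 libraries of a group. For Calcrl and Ramp3 both Jun-cKO-labelled libraries lie above both Jun-Ctrl libraries, for Ramp1 both lie below, and for Adm and Ramp2 the groups overlap.

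Adm, the ligand gene, lies on chromosome 7 at 110627661-110629820 on the plus strand (GRCm38). It had 710 and 282 counts in Jun-cKO-labelled libraries, against 631 and 333 counts in Jun-Ctrl. Scaled to depth these were 46.5 and 41.6 CPM in Jun-cKO-labelled libraries, against 38.3 and 51.0 CPM in Jun-Ctrl. The lowest and the highest of the 4 values were both in Jun-Ctrl, so the Jun-cKO-labelled values lay inside the Jun-Ctrl range. The log2 fold change was 0.01 (SE 0.14, edgeR adjusted p = 0.953), and the fold had a 95% interval of 0.829 to 1.23. Jun-Ctrl replicate 2 was 1.33 times replicate 1, more than counting error gives (exact binomial p = 3.33e-05). The sign of so small a value was not stable: it was negative under upper-quartile scaling and library totals, and it ran from -0.21 without Jun-Ctrl replicate 1 to 0.19 without Jun-Ctrl replicate 2.

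The hypoxia genes were examined beside Adm. Of 15 tested hypoxia genes, 10 were higher and 1 was lower, beside 19.0% higher and 22.5% lower among all tested genes. Their median log2 fold change was 0.46, beside 0.01 over all tested genes. Ankrd37, a hypoxia-induced ankyrin repeat gene, was at 27.3 and 31.2 CPM in Jun-cKO-labelled libraries, against 6.73 and 4.90 CPM in Jun-Ctrl, 4.77-fold higher (edgeR adjusted p = 1.21e-13). Pdk1, a kinase that holds pyruvate out of the mitochondrial cycle, was 3.30-fold higher (adjusted p = 1.51e-10), and Bnip3, a mitophagy gene, was 2.10-fold higher (2.52e-05). The glycolysis gene Pgk1 was 1.86-fold higher (3.34e-06), with 91.7 CPM in one Jun-cKO-labelled library and 166 CPM in the other, and had no call in DESeq2 (0.0882). Without Jun-Ctrl replicate 1 fewer genes were called, in this list as over all tested genes, and those called in the list were all higher. Whether Adm and this list differ was not tested.

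Of the other peptides that use these receptors, none could be tested. Adm2, the intermedin gene, had 4 counts over both Jun-cKO-labelled libraries and 2 over both Jun-Ctrl libraries, and Calca, the gene of calcitonin and calcitonin gene-related peptide, had 0 in Jun-cKO-labelled libraries and 6 in Jun-Ctrl. Calcb and Iapp, the amylin gene, had 0 counts in all 4 libraries. In CPM, 3 counts come to 0.197 and 0.443 for Jun-cKO-labelled libraries and to 0.182 and 0.459 for Jun-Ctrl, so Adm was the 1 ligand gene well above that floor. Such floors and the counting intervals below allow for counting error alone, because reads copied by amplification, with no molecular identifiers, are not independent molecules.

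Pam, the enzyme that amidates adrenomedullin and thereby activates it, was at 77.5 and 74.4 CPM in Jun-cKO-labelled libraries, against 119 and 110 CPM in Jun-Ctrl, 1.51-fold lower (edgeR adjusted p = 6.91e-05). Ece1, an endothelin-converting enzyme, had a log2 fold change of -0.27 without a call (0.0603). In DESeq2, limma-voom, the replicate block and 6 other alternatives the list of these enzymes and binding proteins had 2 genes called lower in place of 1, and Pam and Ece1 were its tested genes with negative values. Mme, a peptide-cleaving enzyme, had 1 count over both Jun-cKO-labelled libraries and 18 over both Jun-Ctrl libraries and was not tested.

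Calcrl, the receptor gene, lies on chromosome 2 at 84330626-84425411 on the minus strand. It had 4838 and 2665 counts in Jun-cKO-labelled libraries, against 3844 and 1478 counts in Jun-Ctrl. These were 317 and 393 CPM in Jun-cKO-labelled libraries, against 233 and 226 CPM in Jun-Ctrl. Both Jun-cKO-labelled libraries lay above both Jun-Ctrl libraries. Calcrl was 1.54-fold higher (95% interval 1.31 to 1.82), a log2 fold change of 0.63 (SE 0.12, edgeR adjusted p = 3.68e-05). No difference beyond counting error was detectable between the Jun-Ctrl libraries (exact binomial p = 0.323), whereas Jun-cKO-labelled replicate 2 was 1.24 times replicate 1 (8.53e-19). The size of the difference moved with the library used, at 0.78 without Jun-cKO-labelled replicate 1 and 0.47 without replicate 2, and Calcrl was called in all 14 alternatives run.

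Calcrl has few G and C bases. Its longest annotated transcript holds 37.8% GC, at percentile 1.76 of the tested genes with a known GC content. Over all tested genes the log2 fold change declined with GC content, from a median of 0.22 in the lowest decile to -0.45 in the highest. In the lowest decile, which holds Calcrl, 402 of 1218 genes were higher and 110 lower. With each library's GC trend removed, Calcrl had a log2 fold change of 0.38 (edgeR adjusted p = 0.00712).

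**Figure D2:**
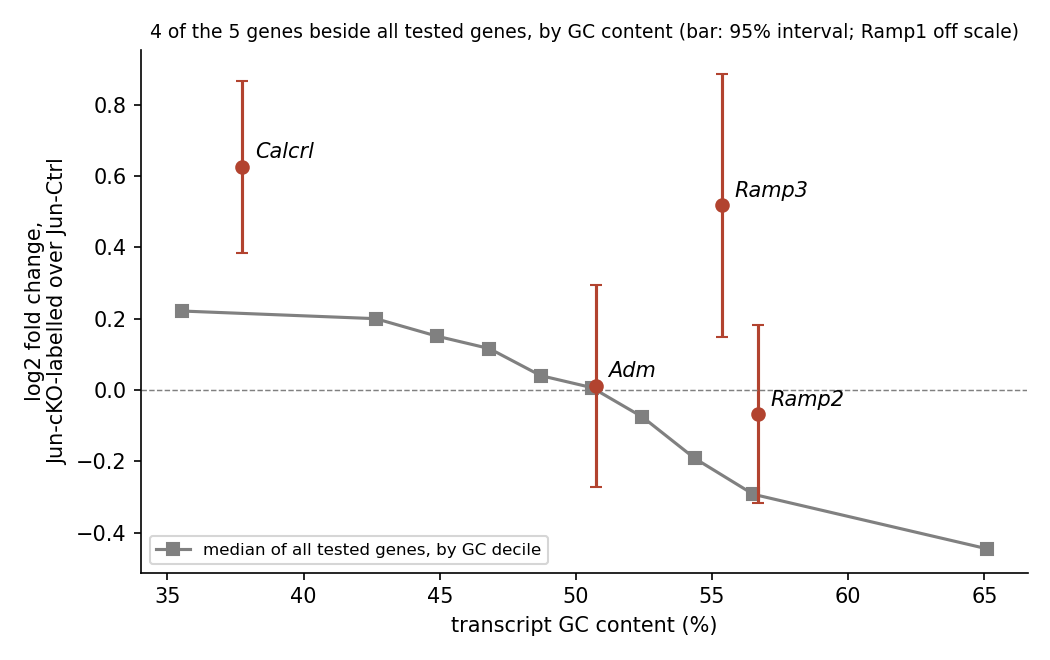
Log2 fold change, Jun-cKO-labelled over Jun-Ctrl, against transcript GC content in percent for Calcrl, Adm, Ramp3 and Ramp2 with 95% intervals, and the median of all tested genes in each decile of GC content as squares. The medians decline from 0.22 to -0.45, Calcrl, Ramp3 and Ramp2 lie above the line, Adm lies on it, and Ramp1 at -3.89 is off the scale.

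Calcr, the calcitonin receptor gene, which also pairs with Ramps, had 0 counts over both Jun-cKO-labelled libraries and 2 over Jun-Ctrl. Of genes linked to the same ligands, Gpr182, an endothelial receptor once listed as an adrenomedullin receptor, was at 176 and 145 CPM in Jun-cKO-labelled libraries, against 109 and 110 CPM in Jun-Ctrl, 1.48-fold higher (edgeR adjusted p = 0.000147). Ackr3, a scavenging receptor that takes up adrenomedullin and chemokines, was at 205 and 192 CPM in Jun-cKO-labelled libraries, against 185 and 185 CPM in Jun-Ctrl, with no call (log2 fold change 0.10, adjusted p = 0.491). Crcp, an intracellular protein that couples the Calcrl complex to signalling, was 1.23-fold lower (adjusted p = 0.044), a call that DESeq2 (0.109), limma-voom (0.0505) and the fit with no filter (0.0635) did not give. It was also lost when Jun-Ctrl replicate 1 (0.0502), Jun-Ctrl replicate 2 (0.349) or Jun-cKO-labelled replicate 2 (0.204) was left out.

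Ramp2 lies on chromosome 11 at 101246028-101259546 on the plus strand. It had 12475 and 4646 counts in Jun-cKO-labelled libraries, against 12959 and 5169 counts in Jun-Ctrl. These were 817.5 and 685.9 CPM in Jun-cKO-labelled libraries, against 785.9 and 790.8 CPM in Jun-Ctrl. The highest and the lowest value were both in Jun-cKO-labelled libraries, and the groups overlapped. The log2 fold change was -0.07 (SE 0.12, edgeR adjusted p = 0.694), with an interval of the fold from 0.803 to 1.13. Between the Jun-Ctrl libraries no difference beyond counting error was detectable (exact binomial p = 0.705), and Jun-cKO-labelled replicate 2 was 0.839 times replicate 1 (5e-25).

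The value of Ramp2 changed sign with the GC correction. Its longest annotated transcript, of 1478 bases, holds 56.7% GC, at percentile 86.2, and need not match the exons counted. The log2 fold change was 0.27 after correction (edgeR adjusted p = 0.0615), which passed the threshold when a replicate block was added (0.0161). It was 0.06 without Jun-cKO-labelled replicate 2. In the GENCODE M21 annotation Ramp2 also shares 1103 exon bases with its neighbour Vps25, an endosomal sorting gene on the same strand. That overlap is longer than the counted Ramp2 row of 872 bases, so the exons counted differ from those of GENCODE. Which reads the 2 genes share in these counts is not known. Vps25 was at 179 and 150 CPM in Jun-cKO-labelled libraries, against 119 and 121 CPM in Jun-Ctrl (log2 fold change 0.46, adjusted p = 0.0015).

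Ramp3 lies on chromosome 11 at 6658521-6677475 on the plus strand and overlaps 101 exon bases of the antisense pseudogene Gm11978. It had 292 and 101 counts in Jun-cKO-labelled libraries, against 203 and 77 counts in Jun-Ctrl. These were 19.1 and 14.9 CPM in Jun-cKO-labelled libraries, against 12.3 and 11.8 CPM in Jun-Ctrl. The groups did not overlap, and Jun-cKO-labelled replicate 2 was the nearer to Jun-Ctrl. Ramp3 was 1.43-fold higher (95% interval 1.11 to 1.85), a log2 fold change of 0.52 (SE 0.18, edgeR adjusted p = 0.0199). DESeq2 gave no call for it (adjusted p = 0.124). Nor was it called when Jun-Ctrl replicate 1 (0.129), Jun-Ctrl replicate 2 (0.123) or Jun-cKO-labelled replicate 1 (0.297, at a log2 fold change of 0.30) was left out. Its longest annotated transcript holds 55.4% GC, and after GC correction the log2 fold change was 0.77 (adjusted p = 0.000837). The adjusted p ran from 2.63e-05 to 0.297 over the 14 alternatives.

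Ramp1, the partner that makes the receptor for calcitonin gene-related peptide, lies on chromosome 1 at 91179822-91225196 on the plus strand. It had 4 and 1 counts in Jun-cKO-labelled libraries, against 56 and 24 counts in Jun-Ctrl. Counting error alone allows 1.09 to 10.2 for the 4 counts and 0.0253 to 5.57 for the 1 (95% exact Poisson intervals). In CPM it was at 0.262 and 0.148 in Jun-cKO-labelled libraries, against 3.40 and 3.67 in Jun-Ctrl. Both Jun-cKO-labelled libraries were near the floor and below both Jun-Ctrl libraries. Ramp1 was 14.8-fold lower, a log2 fold change of -3.89 (SE 0.54, edgeR adjusted p = 9.45e-08). The ratio of summed counts scaled to depth, with Jun-Ctrl on top, was 15.3 with a counting interval of 6.30 to 48.4. It was called in all 13 alternatives in which it could be tested.

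Markers of other cell types were set beside Ramp1, and their lists did not all move one way. The background for each list is 19.0% higher and 22.5% lower over all tested genes. Of 16 epithelial markers 15 were lower and 0 higher, and their summed level was 199 and 200 CPM in Jun-cKO-labelled libraries, against 1748 and 1842 CPM in Jun-Ctrl. Of 9 tested immune markers 8 were lower and 0 higher, at 185 to 207 CPM in Jun-cKO-labelled libraries, against 465 to 473 CPM in Jun-Ctrl, and the T cell marker Cd3e was at 0 in all 4. Of 13 tested mesenchymal markers 7 were lower and 1 higher, with sums of 481 to 550 CPM in Jun-cKO-labelled libraries, against 530 to 559 CPM in Jun-Ctrl. Postn carried that sum, at 359 ± 44.3 CPM in Jun-cKO-labelled libraries and 164 ± 26.4 CPM in Jun-Ctrl, while Col1a2 was 3.25-fold lower. The smooth muscle marker Des had 0 counts in Jun-cKO-labelled libraries and 15 in Jun-Ctrl. Of 4 tested mesothelial markers 2 were lower and 1 higher, and their sums were 316 to 335 CPM in Jun-cKO-labelled libraries, against 264 to 286 CPM in Jun-Ctrl. Gpm6a carried that sum, at 322 ± 13.4 CPM in Jun-cKO-labelled libraries and 219 ± 23.3 CPM in Jun-Ctrl, while Msln was 27.9-fold and Krt19 16.4-fold lower. Of 2 tested neural markers 1 was lower and 0 were higher, and the list summed to 16.5 to 19.6 CPM in Jun-cKO-labelled libraries, against 25.1 to 25.2 CPM in Jun-Ctrl. The part of these cells in the Ramp1 result was not tested.

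Endothelial markers stand beside the Calcrl and Ramp3 results in the same way, with the same background of 19.0% higher and 22.5% lower. The summed level of the 10 lymphatic markers was 19744 to 20088 CPM in Jun-cKO-labelled libraries, against 14730 to 15588 CPM in Jun-Ctrl, with 3 of 9 tested markers higher and 1 lower. The 8 pan-endothelial markers summed to 3809 to 3819 CPM in Jun-cKO-labelled libraries, against 3281 to 3435 CPM in Jun-Ctrl, with 2 higher and 1 lower. Of 11 tested blood endothelial markers 4 were higher and 6 lower, and the whole list summed to 1130 to 1135 CPM in Jun-cKO-labelled libraries, against 959 to 990 CPM in Jun-Ctrl. Ednrb carried that higher sum, at 555 ± 14.4 CPM in Jun-cKO-labelled libraries and 291 ± 7.37 CPM in Jun-Ctrl, while Plvap was 2.07-fold lower and the median log2 fold change of the tested markers was -0.95. Calcrl and Ramp3 are expressed by more than one kind of endothelium, and the part of these marker changes in their values was not tested.

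**Figure D3:**
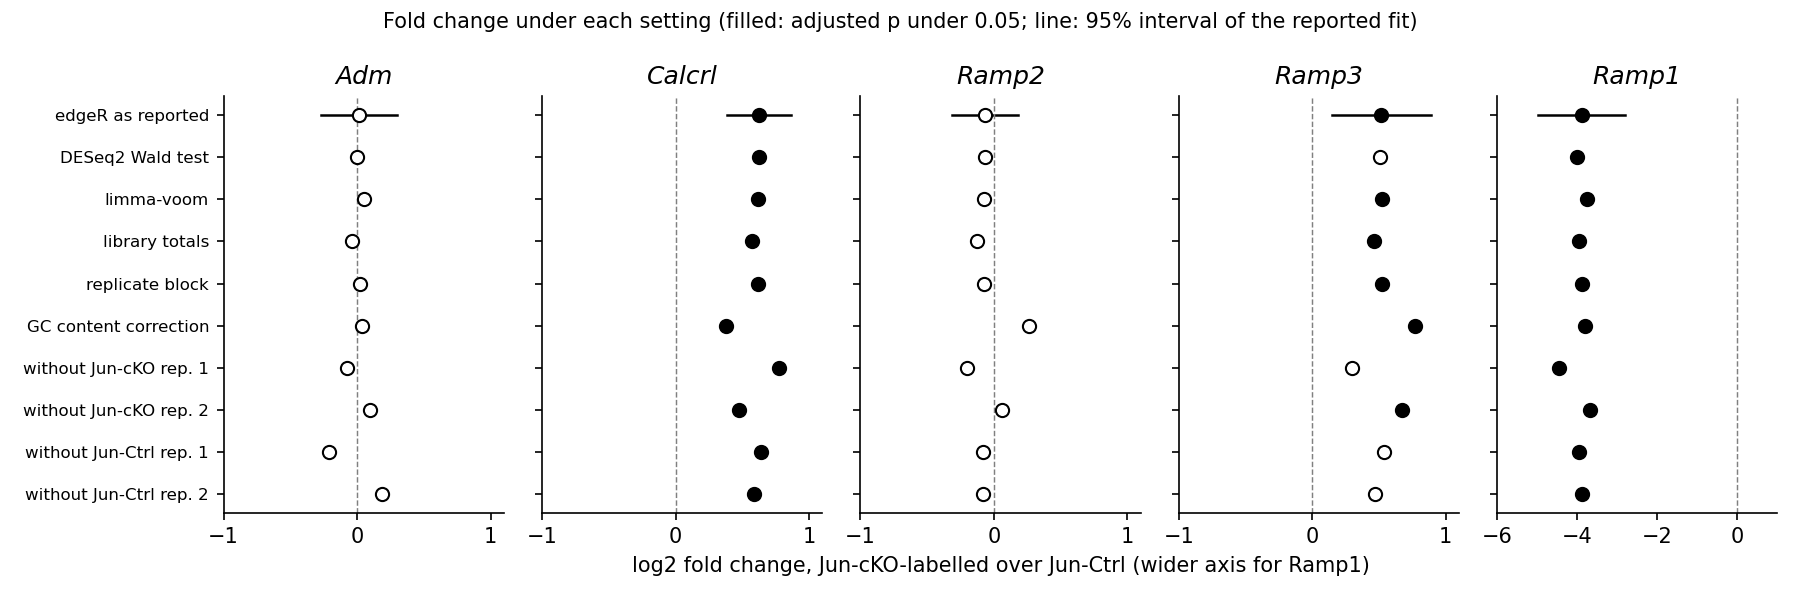
Log2 fold change of the 5 genes, Jun-cKO-labelled over Jun-Ctrl, under each of 10 settings, filled where the adjusted p was under 0.05, with the 95% interval of the reported edgeR fit. Calcrl and Ramp1 are filled in every row, Ramp3 is open in 4 rows, and Adm and Ramp2 are open in every row.

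Levels of different genes were compared as RPKM, the scaled counts per kilobase of the gene length in the table. Ramp2 averaged 862 ± 107 RPKM in Jun-cKO-labelled libraries, against 904 ± 4.0 RPKM in Jun-Ctrl, near percentile 99 of all tested genes in every library. Calcrl averaged 75.0 ± 11.4 RPKM in Jun-cKO-labelled libraries, against 48.5 ± 1.04 RPKM in Jun-Ctrl. Adm averaged 31.9 ± 2.51 RPKM in Jun-cKO-labelled libraries, against 32.3 ± 6.49 RPKM in Jun-Ctrl. The order of the 5 genes was the same in all 4 libraries, Ramp2 above Calcrl, Adm, Ramp3 and Ramp1. Ramp3 averaged 13.9 ± 2.45 RPKM in Jun-cKO-labelled libraries, against 9.87 ± 0.307 RPKM in Jun-Ctrl, and Ramp1 averaged 0.0678 ± 0.0268 RPKM in Jun-cKO-labelled libraries, against 1.17 ± 0.0645 RPKM in Jun-Ctrl. Neighbours in this order were apart in every library, Ramp2 by 9.47 to 19.0 times over Calcrl, Calcrl by 1.29 to 2.76 times over Adm, and Adm by 2.15 to 3.82 times over Ramp3. The smallest gap, 1.29 times in Jun-Ctrl replicate 2, was less than the 1.33 times between the Jun-Ctrl replicates of Adm, so Calcrl and Adm there were not apart beyond that spread.

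Among the 3 Ramps, Ramp2 held nearly all of the RNA per length. Its share of the summed Ramp RPKM was 98.35% and 98.47% in Jun-cKO-labelled libraries, against 98.77% and 98.82% in Jun-Ctrl. Ramp3 held 1.64% and 1.53% in Jun-cKO-labelled libraries, against 1.11% and 1.05% in Jun-Ctrl. Ramp1 held 0.00910% and 0.00612% in Jun-cKO-labelled libraries, against 0.123% and 0.132% in Jun-Ctrl. The Ramp that leads was the same in all 4 libraries. RNA shares do not give the shares of the receptor complexes.

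Ratios between the genes were set beside each other in each library. The log2 RPKM ratio of Ramp2 to Calcrl was 3.81 and 3.24 in Jun-cKO-labelled libraries, against 4.20 and 4.25 in Jun-Ctrl, a difference of -0.70. The difference was -0.98 without Jun-cKO-labelled replicate 1 and -0.41 without replicate 2. The log2 ratio of Ramp3 to Ramp2 was -5.90 and -6.01 in Jun-cKO-labelled libraries, against -6.48 and -6.56 in Jun-Ctrl, a difference of 0.56. The log2 ratio of Adm to Calcrl was -0.99 and -1.46 in Jun-cKO-labelled libraries, against -0.83 and -0.37 in Jun-Ctrl, a difference of -0.63. It ran from -0.86 without Jun-cKO-labelled replicate 1 to -0.39 without replicate 2, and was -0.40 when Jun-Ctrl replicate 2 was left out. For these 3 ratios the groups did not overlap, and the two-sided exact permutation p was 0.333 for each, the smallest that 6 arrangements of 4 libraries allow. The ratio of Ramp3 to Calcrl overlapped, at -2.10 and -2.77 in Jun-cKO-labelled libraries, against -2.29 and -2.31 in Jun-Ctrl (exact permutation p = 1), and the sign of that difference depended on which Jun-cKO-labelled library was used, at -0.47 without replicate 1 and 0.20 without replicate 2. The ratios were not corrected for GC content. In the GC-corrected fit the log2 fold changes of Ramp2 and Calcrl were 0.27 and 0.38, much closer to each other than the -0.07 and 0.63 without the correction.

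**Figure D4:**
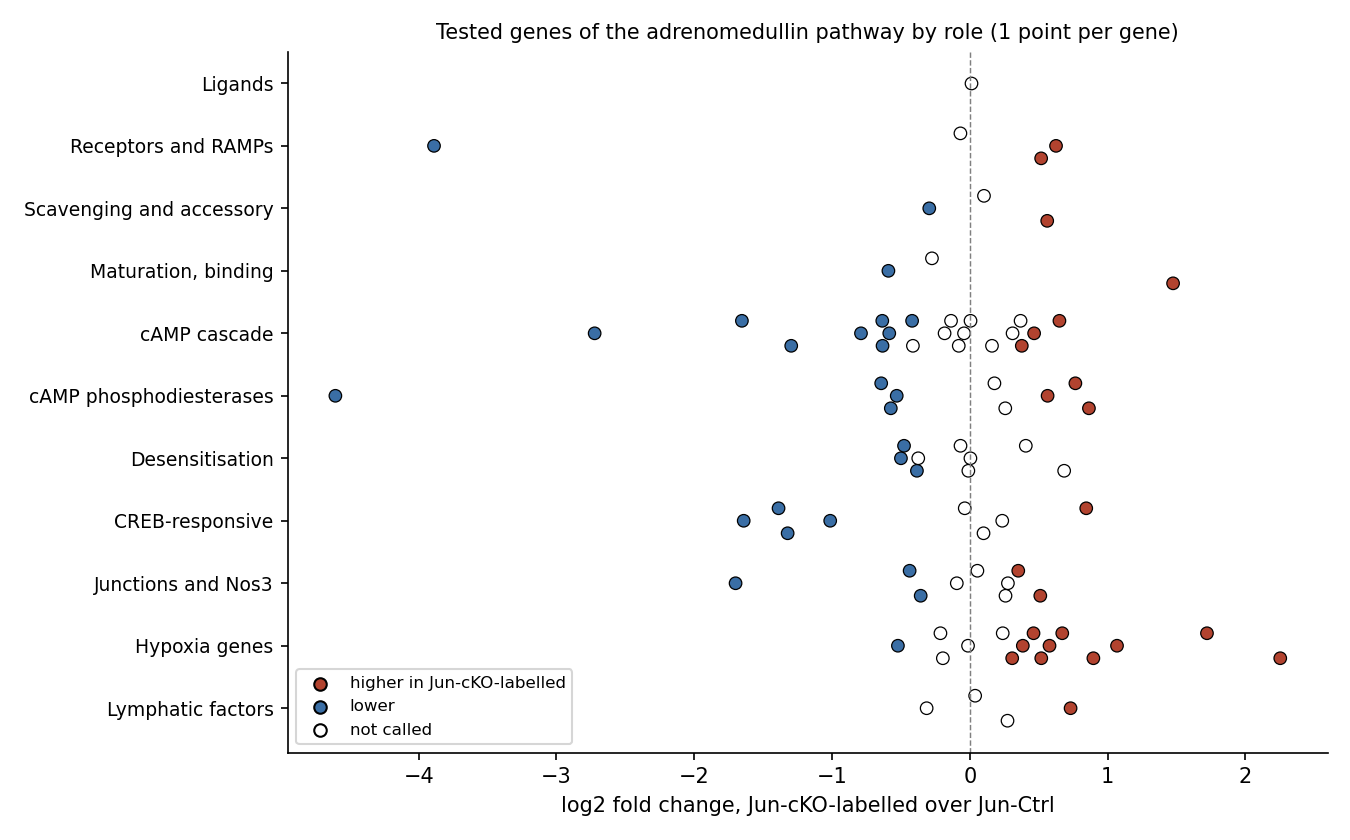
Log2 fold change, Jun-cKO-labelled over Jun-Ctrl, of the tested genes of 11 adrenomedullin pathway lists by role, 1 point a gene, coloured by call. Calls lie on both sides of 0 in most rows, the hypoxia genes lie mostly to the right, and Ramp1 at -3.89 is the lowest of the receptor row.

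Downstream of the receptor, cyclic AMP genes were called in both directions. Of 20 tested genes of the cyclic AMP cascade 3 were higher and 8 lower, with a median log2 fold change of -0.16. Over all tested genes 19.0% were higher and 22.5% lower. Gnas, the stimulatory G protein subunit to which Calcrl couples, was at 10870 and 10275 CPM in Jun-cKO-labelled libraries, against 6911 and 6555 CPM in Jun-Ctrl, 1.57-fold higher (edgeR adjusted p = 0.000317). Adcy7, an adenylyl cyclase, was 3.15-fold lower (1.15e-05), and the protein kinase A genes Prkar2a and Prkaca were 2.46-fold (3.2e-07) and 1.55-fold lower (0.000705). Protein kinase A genes did not all go that way. Prkar1a was at 974 ± 20.9 CPM in Jun-cKO-labelled libraries and 705 ± 12.3 CPM in Jun-Ctrl, 1.38-fold higher (edgeR adjusted p = 0.00185). Prkacb (0.615), Prkar1b (0.876) and Prkar2b (0.0637) had no call. Adcy4, the most abundant adenylyl cyclase of the list in CPM, had a log2 fold change of 0.01 with no call. The count of called genes of the cascade was 6 in place of 11 after GC correction, beside 4941 in place of 5251 over all tested genes. With either Jun-Ctrl library left out fewer genes were called, in the cascade as over all tested genes. Prkaca had no call in the fit that left out Jun-Ctrl replicate 1, at a log2 fold change of -0.50.

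Of 9 tested phosphodiesterase genes, whose enzymes break down cyclic AMP, 3 were higher and 4 lower. Pde3b was 1.82-fold higher (edgeR adjusted p = 7.92e-07) and Pde4d 1.70-fold higher (0.000124), whereas Pde7a was 1.56-fold lower (9.76e-05). Pde4c had 1 count over both Jun-cKO-labelled libraries and 31 over both Jun-Ctrl libraries (log2 fold change -4.61, adjusted p = 4.63e-05). Of 8 genes that answer to the cyclic AMP response element binding protein CREB, 1 was higher and 4 lower, with a median of -0.52. Crem, a CREB family gene, was at 164.5 and 164.0 CPM in Jun-cKO-labelled libraries, against 90.8 and 92.1 CPM in Jun-Ctrl, 1.80-fold higher (6.87e-08). The nuclear receptor genes Nr4a1 and Nr4a2 were 2.62-fold and 2.50-fold lower and the clock gene Per1 was 3.12-fold lower (adjusted p = 5.35e-11, 2.68e-06 and 4.2e-08), and AP-1 and other signals act on these genes too. Over all 12 lists, 24 of 87 tested genes were higher and 26 lower, with a median of -0.01. For the phosphodiesterase, CREB and pooled lists the background is 19.0% higher and 22.5% lower over all tested genes. Fewer phosphodiesterase genes were called without Jun-Ctrl replicate 1, as was so over all tested genes.

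For each of the 5 genes, the 3 genes with the most similar pattern were taken by the distance between log2 CPM values over the 4 libraries, each gene centred on its mean, among genes within 2-fold of its level. Those nearest to Calcrl were Agfg1 at a distance of 0.0525, a row whose name a spreadsheet had turned into a date, and Rai14 at 0.0665, all 3 called higher. Those nearest to Ramp3 were Rsbn1l at 0.0320, Sorcs1 at 0.0321 and Mansc1 at 0.0497, all called higher but Sorcs1 (edgeR adjusted p = 0.0645). Plekha2 at 0.117, Cacna1c at 0.252 and Hyls1 at 0.262 were nearest to Ramp1, and all 3 were called lower. Nearest to Adm were Tbc1d7 at 0.0234, Cnot1 at 0.0675 and Wbscr22 at 0.0691, and nearest to Ramp2 were Cmtm3 at 0.0336, Ube2r2 at 0.0338 and Tmed9 at 0.0353, none of them called. These genes were picked by the same values that the calls use, so a call shared with the member follows from the choice. How many other genes lie as close was not counted, and the distances are a description only.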

How the data were processed

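RNA of sorted cells was amplified before preparation of the 4 libraries and read over 79 bases, per the labels' protocols. The authors deposited 1 table of raw counts per gene with a gene length in bases. Per the submitters' processing notes, mm10 was the build and the tools, whose roles those notes leave out, were featureCounts 1.6.4, STAR 2.7.2a and edgeR 3.28.1. Annotation and strand setting: not given in the sources used here. Reads of overlapping and antisense genes are therefore uncertain. No row was a total.

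The test on these counts was run in R 4.3.3 with edgeR 4.0.16 (quasi-likelihood test, TMM, filterByExpr, all 4 libraries, no block), with Benjamini-Hochberg adjustment over 12656 genes and a threshold of 0.05. The biological coefficient of variation was 0.089. Each library was kept as a replicate. Between the libraries of a group the median chi-square per gene was 1.55 in Jun-cKO and 1.27 in Jun-Ctrl, against 0.455 from counting. That shows spread beyond counting error, but not whether the libraries are biological replicates. RPKM used the deposited gene lengths. The code was tested on simulated data.

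The genes, the lists and the tests were chosen with earlier results of these data known. Named genes are the 5 genes and Jun, in each list up to 4 called genes of smallest p, or 2 of highest CPM where none was called, the untested list genes, up to 3 markers a list, and the 3 nearest genes. Adcy4, Des, Cd3e, Flt4, Prox1, Prkar1a, Prkacb, Prkar1b and Prkar2b were named, and Vps25 added as an overlapping gene, after their values were seen. Some genes that the rule takes in are left out of the text. Gene positions and GC content are from GENCODE M21 (GRCm38). GC content is that of the longest transcript of a gene name, and was found for 96.3% of tested genes. Alternatives were other scalings, DESeq2 1.42.0, limma-voom (limma 3.58.1), other filters, a replicate block, a GC correction (loess, span 0.5, entered as an offset) and each library left out.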

Additional observations from a re-analysis of the deposited data

How the results depend on the processing

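Calcrl and Ramp1 kept their direction and call in every alternative in which they were tested, 14 for Calcrl and 13 for Ramp1, which the filter of 50 counts in 2 libraries removed. The log2 fold change of Adm was -0.025 with upper-quartile scaling, -0.043 with library totals, -0.0019 in DESeq2, -0.025 with the filter of 50 counts and -0.21 to 0.19 with 1 library left out. That of Ramp2 was 0.27 after GC correction, with or without a replicate block, and -0.20 to 0.061 with 1 library left out. Ramp3 was at 0.51 in DESeq2 and at 0.30 to 0.67 with 1 library left out, and Jun at 0.41 after GC correction (adjusted p = 0.00388) and 0.42 with the block added. The cause of these shifts was not tested. Without division by length, Ramp2 held 97.8% of Ramp counts in Jun-cKO and 98.1% in Jun-Ctrl.

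The total of 5251 calls was 3591 in DESeq2 and 2992 to 4794 with 1 library left out, lowest without Jun-Ctrl replicate 1, and 3425 when the other Jun-Ctrl library was left out. The median gene shifted by at most -0.057 (library totals), and the share of calls that were higher was 45.9%, against 49.3% after GC correction and 38.0% with library totals. The titles do not state that the mark pairs the samples. Across genes the deviations of replicate 1 from its group mean had r = 0.073 between the groups. With 2 pairs that value cannot decide whether they are paired. The libraries with the mark had 6911821 and 6483514 counts, against 15558476 and 16037416 in those without it. With the mark as a replicate block, 5426 genes were called, Calcrl was at 0.62 and Ramp3 at 0.52 (adjusted p = 0.0132).

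Of the other named genes, Gper1 was at 0.17 and 0.16 after GC correction without and with the block, and at -0.25 to 0.058 with 1 library left out, and Gja4 was at 0.090 in both. Tbc1d7 was at -0.0025, -0.021 and -0.0037 with upper-quartile scaling, library totals and the filter of 50 counts, and at -0.036 and -0.019 after GC correction without and with the block. Wbscr22 was at -0.023, -0.041 and -0.024 in the first 3 of these, and Cmtm3 at 0.059 and 0.056 after GC correction without and with the block. With 1 library left out, Tbc1d7 ran from -0.19 to 0.19, Cnot1 from -0.22 to 0.12, Wbscr22 from -0.17 to 0.15, Cmtm3 from -0.21 to 0.078, Ube2r2 from -0.23 to 0.028 and Tmed9 from -0.16 to 0.073.

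Depth limits Ramp1, with 5 counts in Jun-cKO, and Ramp3. With 2 libraries a group that the labels do not call separate sorts, the biological spread is not known.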

Other observations

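Of 9 tested genes of receptor desensitisation, whose products end the signal of such receptors, 0 were higher and 3 lower, beside 22.5% lower among all tested genes. With Jun-cKO-labelled replicate 1 left out, 1 was called higher and 2 lower. The arrestin gene Arrb1 was at 134 and 119 CPM in Jun-cKO-labelled libraries, against 167 and 191 CPM in Jun-Ctrl, 1.41-fold lower (edgeR adjusted p = 0.000573). The receptor kinase genes Grk6 and Adrbk1 were 1.39-fold and 1.30-fold lower (0.00286 and 0.0314). Only the Arrb1 call of the 3 held in every alternative run. Fewer genes of the list were called without Jun-Ctrl replicate 2, as was so over all tested genes. Grk6 was not called after GC correction (0.465), and Adrbk1 was not called in DESeq2 (0.123) or with Jun-cKO-labelled replicate 1 left out (0.373). Of 12 other receptors known to pair with Ramps, 2 could be tested and 0 were called, Gper1 at 2.88 ± 0.102 CPM in Jun-cKO-labelled libraries and 3.08 ± 0.454 CPM in Jun-Ctrl, and Pth1r at 1.13 ± 1.18 CPM in Jun-cKO-labelled libraries and 2.49 ± 1.03 CPM in Jun-Ctrl (SD, n = 2 each). At an unadjusted p of 0.05 the count was also 0, as it was in DESeq2 and limma-voom. With no filter on low counts 1 receptor of the list was called, lower, and leaving out Jun-cKO-labelled replicate 1 gave a call for Pth1r (adjusted p = 0.00667, log2 fold change -2.89).

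Junction genes were called in both directions. Of 9 genes of endothelial junctions and tone 2 were higher and 3 lower, beside 19.0% higher and 22.5% lower among all tested genes. The beta-catenin gene Ctnnb1 was 1.43-fold higher (edgeR adjusted p = 0.00216, and 0.102 without Jun-Ctrl replicate 2). Gja4 and the nitric oxide synthase gene Nos3 were 1.28-fold and 1.35-fold lower (0.0116 and 0.0155), and neither was called after GC correction (0.523 and 0.914) or with Jun-Ctrl replicate 2 left out (0.166 and 0.239). For Nos3 DESeq2 (0.0657) and the fit that left out Jun-cKO-labelled replicate 1 (0.0739) also gave no call. Fewer junction genes were called without Jun-Ctrl replicate 2, as was so over all tested genes. Of 4 lymphatic transcription factor genes, Foxc2, which is needed for lymphatic valves, was at 232 and 249 CPM in Jun-cKO-labelled libraries, against 155 and 133 CPM in Jun-Ctrl, 1.66-fold higher (1.69e-06). Prox1, Nr2f2 and Sox18 had no call, so 1 of the 4 was called higher, beside 19.0% of all tested genes. With library totals 1 of the 4 was higher and 1 lower, beside 1930 higher and 3155 lower of all 12656 tested genes. After GC correction 2 were higher and 1 lower, beside 2436 and 2505 of all 12656.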
